A study of Mus musculus with 4 samples.

Results

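The 39 genes described here encode proteins that carry a cell through mitosis: the kinases and cyclins that start it, the kinetochore and spindle proteins that move the chromosomes, and the ligases and proteases that end it. They were chosen by name, and the probes of each were found through the RefSeq transcript that the array lists for them. All 39 genes were present, with 56 probes of the 55681 on the array that are not controls, and they are 39 of the 21151 genes that could be named.

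In a dividing cell these genes are made in waves. Their RNA accumulates from late S phase to the G2 to M transition, and much of the protein is destroyed by the anaphase-promoting complex as the cell leaves mitosis. The MuvB core, together with B-MYB and FOXM1, switches many of them on through a promoter element called the CHR, often beside CCAAT boxes bound by NF-Y, and in resting cells MuvB represses them as part of the DREAM complex. In bone marrow, most long-term stem cells rest, whereas multipotent progenitors and erythroid progenitors cycle, so the RNA of these genes is widely read as a mark of dividing cells in a sorted population.

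The cells came from mice of the C57BL/6 strain that had received, after lethal irradiation, bone marrow carrying JAK2V617F, a floxed Ezh2 and Cre-ERT2. Recipients were CD45.1+ wild-type mice. Ezh2 had then been deleted, so that every group has the genotype JAK2V617F/Ezh2Δ/Δ. Mice were given DMSO or JQ1, which blocks the bromodomains of BET proteins, for 2 weeks before cells were sorted from the bone marrow. The 4 groups pair each treatment with each population. LSK cells lack lineage markers, carry c-Kit and Sca-1 and include the stem cells, and MEP are progenitors of megakaryocytes and red cells. Each group has 1 array, and the number and age of mice behind each are not given in the sources used here. With 1 array a group there is no test and no replicate check of any difference below. Fewer cells in mitosis and less of these RNAs per dividing cell cannot be told apart in such bulk samples.

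Signals are given as a level, the log2 of the processed signal relative to the array's 75th percentile. A difference is the change of that level between 2 arrays minus the change of the median measured gene, and a gene was measured in a comparison when its brightest probe was well above background on both arrays. Between 25169 and 29615 probes were well above background on an array, and no spot was saturated. MEP arrays carried all 12 fixed MEP markers at 2-fold or more above the LSK arrays. The erythroid factor Klf1 was at 3.79 (DMSO) and 4.74 (JQ1). The LSK markers had medians of -0.68 (12 measured) and -1.53 (11 measured), with 4 and 7 lower by 2-fold in MEP. Ly6a, which encodes Sca-1, was lowest at -4.58 and -4.13. Going the other way were Slamf1, at 2.35 and 1.18, and Mecom, at 0.87 under DMSO. The DMSO MEP array stood apart, with correlations of 0.973 to 0.976 with the other arrays, which correlated at 0.979 to 0.991 among themselves. The scanner's own error of a difference was near 0.20 log2 for most members, up to 0.23 for Ttk, and 0.42 for Aurkb and 0.40 for Cenpf between the LSK arrays. Different probes of the same gene gave differences with an SD of 0.26 log2 for JQ1 in LSK and 0.39 in MEP, and of 0.37 (DMSO arrays) and 0.27 (JQ1 arrays) between the cell types.

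The promoters are shown first because they carry what these genes have most clearly in common. RefSeq (GRCm38.p6) gave a promoter of 250 bases before to 50 after the start for 32 of the 39 genes, 34 promoters in all. The CHR was searched as TTTGAA or TTCGAA and the CCAAT box as CCAAT, on both strands. A CHR sequence was present in 27 of these 34 promoters (79.4%), against 19.2% of all 32851 promoters of that length. A CCAAT box was present in 26 (76.5%, against 37.4%), and both stood in 24 (70.6%, against 7.52%). Of the 34, 18 had 2 or more CCAAT boxes (52.9%, against 11.7%), and in 8 of these 18 neighbouring boxes began 30 to 35 bases apart (44.4%, against 13.6% of all promoters with 2 or more). The spacing was looked at after the positions were seen. In 1 promoter, that of Cdca8, the motifs overlapped. Where they matched, the letters are a description of the window and not a measured site.

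The 150 bases directly before the start are printed for 8 genes, 5′ to 3′ on the gene's own strand, with CHR and CCAAT letters in capitals. Plk1, Cdc20 and Ccnb1 are shown because they were among the members with the higher JQ1 readings in MEP. Ect2, Kif23 and Nusap1 were lower in MEP than in LSK in both pairs of arrays. Cenpa went the other way, and Ccnb2 shows evenly spaced CCAAT boxes.
Plk1, chr7:122159285-122159434, plus strand: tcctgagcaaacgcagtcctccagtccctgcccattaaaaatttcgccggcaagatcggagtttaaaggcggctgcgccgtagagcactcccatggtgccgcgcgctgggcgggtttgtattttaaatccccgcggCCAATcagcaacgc
Cdc20, chr4:118437344-118437493, minus strand: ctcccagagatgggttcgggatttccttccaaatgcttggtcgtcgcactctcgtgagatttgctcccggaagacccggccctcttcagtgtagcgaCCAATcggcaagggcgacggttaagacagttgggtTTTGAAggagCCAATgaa
Ccnb1, chr13:100786487-100786636, minus strand: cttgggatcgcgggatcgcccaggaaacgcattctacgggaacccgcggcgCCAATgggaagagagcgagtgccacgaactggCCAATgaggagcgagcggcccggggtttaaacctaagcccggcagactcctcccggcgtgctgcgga
Ccnb2, chr9:70421555-70421704, minus strand: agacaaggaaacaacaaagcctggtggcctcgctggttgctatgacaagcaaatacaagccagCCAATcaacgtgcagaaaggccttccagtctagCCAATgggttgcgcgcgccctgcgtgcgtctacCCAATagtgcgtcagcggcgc
Ect2, chr3:27153855-27154004, minus strand: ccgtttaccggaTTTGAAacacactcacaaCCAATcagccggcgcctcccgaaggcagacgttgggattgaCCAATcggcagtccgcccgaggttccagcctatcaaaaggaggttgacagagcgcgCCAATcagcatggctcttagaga
Kif23, chr9:61946800-61946949, minus strand: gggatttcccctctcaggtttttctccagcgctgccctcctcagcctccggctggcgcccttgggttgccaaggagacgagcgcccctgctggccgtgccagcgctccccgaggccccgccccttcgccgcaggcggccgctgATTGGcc
Nusap1, chr2:119618148-119618297, plus strand: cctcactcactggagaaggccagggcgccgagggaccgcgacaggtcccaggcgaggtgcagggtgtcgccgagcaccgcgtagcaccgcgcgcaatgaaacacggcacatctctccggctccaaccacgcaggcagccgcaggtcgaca
Cenpa, chr5:30666736-30666885, plus strand: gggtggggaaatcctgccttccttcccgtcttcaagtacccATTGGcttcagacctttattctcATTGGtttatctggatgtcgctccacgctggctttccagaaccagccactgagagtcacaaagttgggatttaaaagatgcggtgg
In Ccnb2 the boxes began at -87, -54 and -21 from the start, and in Ccnb1 at -99 and -67. Plk1, Kif23 and Cenpa have a CHR sequence only past the start, beginning at 31, 3 and 17, and Nusap1 has neither motif in its whole window.

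All 39 members were well above background on both LSK arrays, 38 on the DMSO MEP array and 37 on the JQ1 MEP array. The 2 exceptions were Aurkb, not above background in MEP, and Cenpf, not above it under JQ1 in MEP. The highest and lowest scaled levels of a member differed by a median of 0.63 log2 over the 39, from 0.17 to 1.63. For 32 of the 39 the range was under 1 log2. The same range over all genes was not taken. Relative to the median gene of each array, 28 of the 37 members measured on all 4 arrays had their lowest reading on the DMSO MEP array, as did 35.7% of all 12016 such genes. On the scaled level, before that step, it was lowest for 33 of the 37, and for 54.8% of all such genes. Relative to the median gene, 19 of the 37 had their highest on JQ1 LSK, as did 19.1% of all such genes. The heat map of levels shows that low column across most roles, with Cenpa, Hmmr, Anln and Mad2l1 highest there instead.

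**Figure D1:**
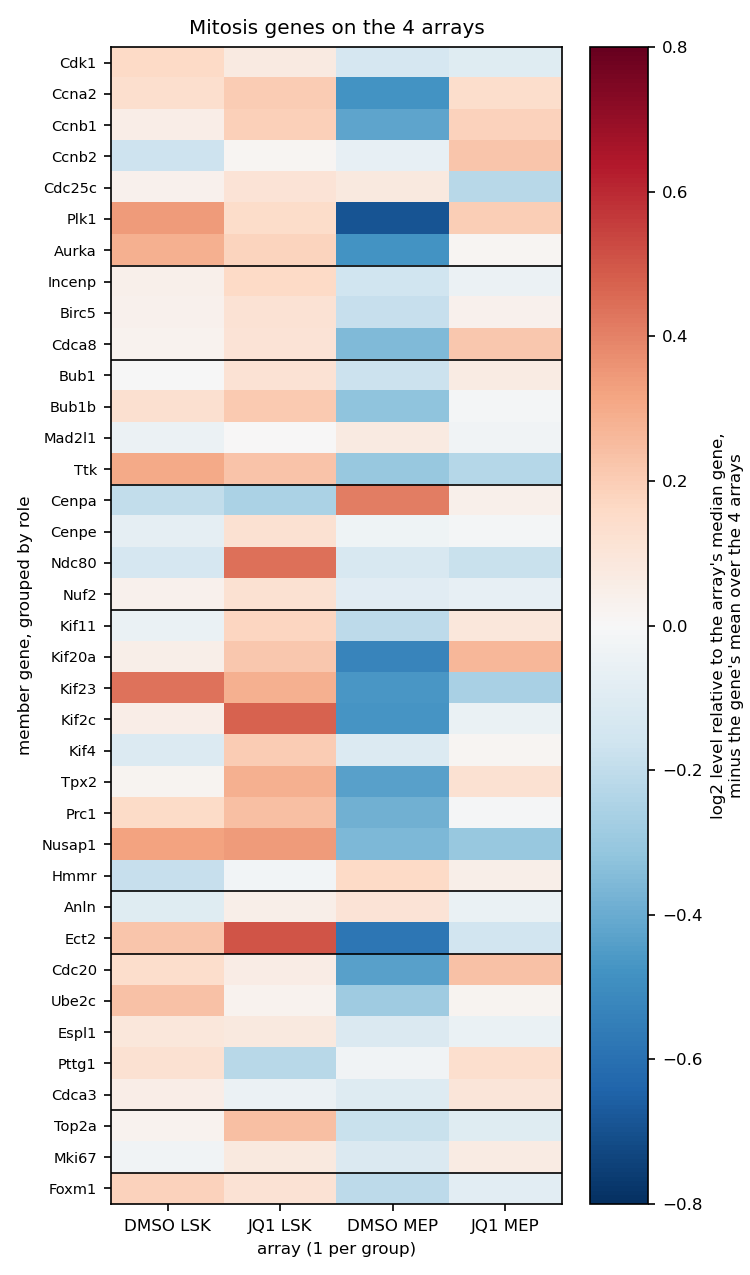
Heat map of 37 mitosis genes (rows, separated by role) on the 4 arrays (columns), coloured by the log2 level relative to the median gene of the array minus the gene's own mean over the 4 arrays. The DMSO MEP column is the lowest for 28 of the 37 genes, and Plk1, Ect2 and Kif20a are its deepest blue cells.

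In LSK cells the question is how the mitosis genes differ after JQ1. None of the 39 members differed by 2-fold, and the whole set lay close to the median gene, between -0.34 and 0.58 log2. Their median was 0.09, with 25 above the median gene and 14 below it. Over all 12327 measured genes 3.76% differed by 2-fold either way and 50% lie above the median gene by construction. At 1.5-fold, again no member was called in either direction, against 2.34% of all genes higher and 7.54% lower. Mki67, the gene of the proliferation marker Ki-67, read 6.09 under DMSO and 6.26 under JQ1, a difference of 0.11. Top2a, the topoisomerase that untangles sister chromosomes, read 3.44 and 3.72, a difference of 0.22. The difference of Mki67 is within the scanner's error of 0.20, and that of Top2a lies just past it.

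Among the roles, the motors and spindle proteins had the highest median of those with more than 2 members, 0.17, with 8 of 9 above the median gene. Kif2c, a kinesin that takes microtubules apart at the centromere, read 0.03 and 0.51 and differed by 0.42. Its second probe differed by -0.22, so the probes of Kif2c do not share a direction. The plus-end motor Kif4, which shapes the chromosomes and the central spindle, differed by 0.32, and Tpx2, which activates Aurora A on the spindle, by 0.27 and 0.26 on its 2 probes. All 5 genes grouped here under anaphase and mitotic exit lay below the median gene, with a median of -0.09. Of these, Cdc20 (-0.07), Cdca3 (-0.09) and Espl1 were within the scanner's error. Securin, Pttg1, which holds the sister-separating protease back, read 4.51 under DMSO and 4.24 under JQ1, a difference of -0.34 that was the lowest of the 39. Ube2c, the ubiquitin-conjugating enzyme of the anaphase-promoting complex, differed by -0.20, and the separase gene Espl1 by -0.01.

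Ndc80, the kinetochore subunit that grips the microtubule, had the highest difference of all members in LSK. Its levels were 0.23 under DMSO and 0.88 under JQ1, a difference of 0.58 or 1.49-fold, beyond the scanner's error of 0.21. Its partner in the same complex, Nuf2, read 1.74 and 1.90 and differed by only 0.10. The entry kinases and cyclins stayed between -0.19 (Plk1) and 0.19 (Ccnb2), with Cdk1 at -0.08. The checkpoint genes Bub1, Bub1b, Mad2l1 and Ttk lay between -0.06 and 0.12, and Foxm1 was at -0.06, with -0.28 on its second probe.

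Markers of other cell types differed on the same pair of arrays. All 7 measured B-cell markers were lower by 2-fold on the JQ1 LSK array, with a median of -2.46, and the summed level of the 8 B-cell markers was 233 under DMSO and 50.4 under JQ1. Neutrophil and monocyte markers had a summed level of 1815 under DMSO and 1152 under JQ1, with Elane at -1.09 and Csf1r at -1.60, while S100a9 was at 1.47. The part of these markers in the readings of the mitosis genes was not tested. The LSK markers had a median of 0.41, with Hlf at 1.18 and Mecom at 1.03.

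In MEP cells the members spread wider after JQ1. Of 37 measured members, none differed by 2-fold, and 3 were higher by 1.5-fold: Plk1 (1.76-fold), Kif20a (1.65-fold) and Cdc20 (1.52-fold). None of the 37 was lower by 1.5-fold. Cenpf, above background on the DMSO array only, read lower under JQ1, with a scanner error of 0.71 log2. Over all 12550 measured genes, 6.75% differed by 2-fold, 4.1% were higher by 1.5-fold and 13.7% lower. The median of the members was 0.13, with 26 above the median gene. It was smaller under several other settings, 0.033 after quantile normalization, 0.043 with no filter on dim probes, 0.052 over the brighter genes and 0.080 when centred on genes of like signal. Brighter genes in general read higher on this pair of arrays. Of 5 equal groups of genes by signal, the brightest had a median of 0.15, and the 17 members in it a median of 0.22. In the next group the 8 members had a median of 0.0002, below the 0.09 of all its genes. In the dimmer groups the members' medians were above those of all genes.

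**Figure D2:**
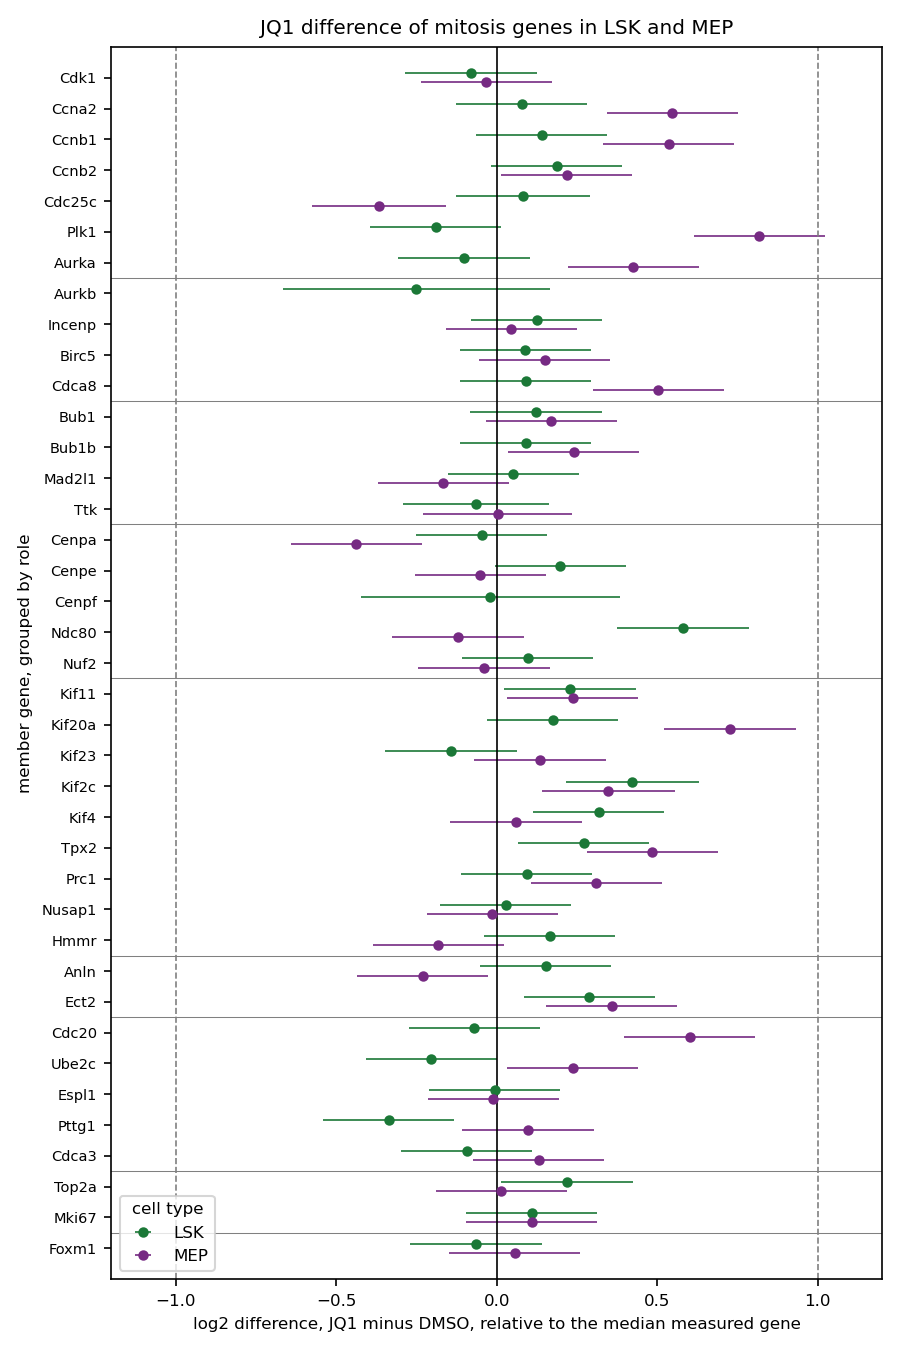
Log2 difference of JQ1 minus DMSO for each mitosis gene in LSK (green) and MEP (purple), relative to the median measured gene, with bars of 1 scanner SD and dashed lines at 2-fold. In LSK the points lie between -0.34 and 0.58, and in MEP between -0.44 (Cenpa) and 0.82 (Plk1). Aurkb and Cenpf have no point in MEP.

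The entry kinases and cyclins had the highest median of the roles in MEP, 0.43, with 5 of 7 above the median gene. Plk1, the Polo kinase that drives centrosome maturation and mitotic entry, read 4.47 under DMSO and 5.62 under JQ1, a difference of 0.82. Its LSK levels were 5.65 and 5.52, so the DMSO MEP reading is the low one and the other 3 lie close together. Ccna2, the A-type cyclin of S phase and G2, read 4.001 and 4.89 in MEP, against 4.76 and 4.90 in LSK. Its difference in MEP was 0.55, with the DMSO MEP reading again the lowest of the 4.

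Aurora A, Aurka, the kinase of the spindle poles, had the same shape, with 3.86 and 4.62 in MEP, 4.76 and 4.72 in LSK, and a difference of 0.43. Ccnb1, the partner of Cdk1 at mitotic entry, read 4.18 and 5.06 in MEP and differed by 0.54 on its brightest probe. Its other 2 probes gave -0.01 and 0.05, so the reading of Ccnb1 rests on 1 probe of 3. Cdk1 itself, at 2.72 and 3.02, differed by -0.03, while its dimmer probes gave -0.21 and -1.41. Ccnb2 was at 0.22, and Cdc25c, the phosphatase that activates Cdk1, was at -0.37.

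Among motors and spindle proteins the median was 0.24, with 7 of 9 above the median gene. Kif20a, the kinesin of the central spindle, read 2.64 under DMSO and 3.71 under JQ1 in MEP, against 3.37 and 3.60 in LSK, and differed by 0.73. Tpx2 was at 0.48 on the brighter probe and 0.27 on the other. Prc1, which bundles the central spindle, was at 0.31, and Hmmr, a spindle protein, at -0.18. Cdc20, the activator of the anaphase-promoting complex, read 5.05 and 5.99, against 5.77 and 5.76 in LSK, a difference of 0.60. It stood well above the others of its role, where Ube2c was at 0.24, Cdca3 at 0.13, Pttg1 at 0.10 (-0.58 on a dimmer probe) and Espl1 at -0.01. Of the chromosomal passenger complex, borealin (Cdca8) was at 0.50 with 0.28 on its second probe, survivin (Birc5) at 0.15 and Incenp at 0.05.

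The 4 measured centromere and kinetochore genes all lay below the median gene in MEP, with a median of -0.09. Of these, Nuf2 (-0.04), Cenpe (-0.05) and Ndc80 (-0.12) were within the scanner's error. Cenpa, the histone H3 variant that marks the centromere, read 4.32 under DMSO and 4.22 under JQ1 and differed by -0.44, the lowest of the 37. Cenpf, a kinetochore protein of G2 and M phase, read -2.94 on the DMSO MEP array and was not well above background under JQ1. With its JQ1 reading set to -3.64, the lowest level well above background on that array, it was 2.05-fold lower. The scanner error was 0.71 log2, so this is no lower bound. That probe was dim on all 4 arrays, and its level was -2.97 and -2.93 in LSK. Mad2l1 was at -0.17 on its brightest probe and at -0.48 and -0.79 on the other probes. Mki67 was at 0.11, with -0.06 on its second probe, and Top2a at 0.01. Foxm1, the transcription factor of the G2 to M program, was at 0.06, with -0.56 on its second probe, so its probes do not share a direction.

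The fixed list of 103 other mitosis genes measured in MEP was read by role as well. The 30 other kinetochore genes had a median of -0.13, with 8 above the median gene, whereas the 20 condensin and cohesin genes had a median of 0.25, with 16 above it. Of the 103, 1 gene was past 2-fold, the minus-end kinesin Kifc1, at 1.097. Lowest were Hjurp, the chaperone that deposits Cenpa, at -0.93 and Mis18a, which licenses that deposition, at -0.68. The list as a whole had a median of 0.06, with 60 above the median gene. In LSK its median was 0.08 with 75 of 103 above, including all 20 condensin and cohesin genes, and its extremes were Mastl, the Greatwall kinase, at -0.76 and the kinetochore scaffold Knl1 at 0.59.

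Those MEP values all take in the DMSO MEP array. On it the 12 immediate early genes, which many stimuli induce quickly, had a summed level of 444, against 125 to 152 on the other arrays, and the 4 nuclear noncoding RNAs 71.3, against 8.21 to 11.8. Meg3, 1 of the 4, was above background on the JQ1 MEP array only. The part of these differences in the readings of the mitosis genes was not tested. JQ1 against DMSO in MEP, 11 of the 12 immediate early genes were lower by 2-fold, with a median of -1.61. The 12 MEP markers had a median of 0.28, with 9 above the median gene, among them Gata1 at 0.72 and Klf1 at 0.75. Below it were the platelet gene Pf4 at -0.66, the megakaryocyte integrin Itga2b at -0.17 and the erythroid Car1 at -0.71. Of 7 measured B-cell markers 6 were lower by 2-fold. The summed level of the neutrophil and monocyte markers was 1273 under DMSO and 2217 under JQ1 in MEP. The 9 measured had a median of 0.41, with 7 above the median gene and 2 lower by 1.5-fold. Elane was highest at 1.40 and Itgam lowest at -0.80. The part of these markers was not tested either.

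**Figure D3:**
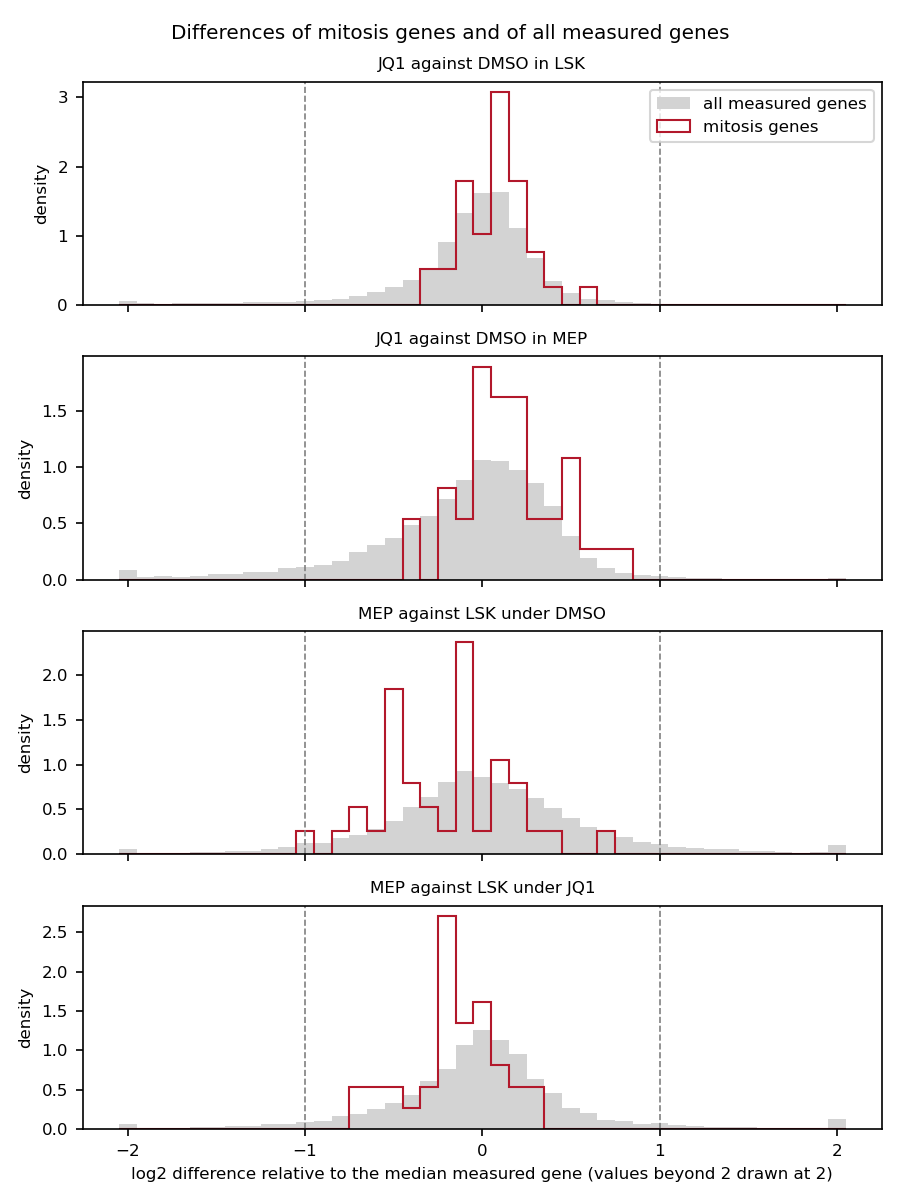
Histograms of the log2 difference relative to the median measured gene, for all measured genes (grey) and the mitosis genes (red outline), in the 4 comparisons, with dashed lines at 2-fold. No measured mitosis gene lies past a dashed line in any panel, and their medians are 0.09, 0.13, -0.14 and -0.15 from top to bottom.

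The JQ1 differences of LSK and MEP come from separate pairs of arrays on 1 slide. Across the 37 members measured on all 4 arrays they had a Pearson r of -0.06, and across all 12016 genes r was 0.16. Higher in both cell types than the median gene were 17 members (45.9%), and lower in both 3 (8.11%), against 27.5% and 26.8% of all genes. The difference in MEP minus that in LSK, relative to the median of all genes, had a median of 0.04 over the members. Plk1 was highest, at 1.00 (1.99-fold), followed by Cdc20 at 0.66, Kif20a at 0.54 and Aurka at 0.52, and Ndc80 was lowest, at -0.71. No member passed 2-fold, as 9.23% of all genes did. At 1.5-fold 2 members were higher and 1 lower, where 9.07% and 13.9% of all genes were.

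How the members differ between the cell types was read first on the DMSO arrays, as MEP minus LSK. Of 38 measured members, 28 lay below the median gene and 10 above it, with a median of -0.14. None differed by 2-fold, against 10% of all 12406 genes. Lower in MEP by 1.5-fold were Plk1 (1.95-fold), Kif23 (1.77-fold), Ect2 (1.66-fold), Aurka (1.61-fold) and Nusap1 (1.53-fold), and higher was Cenpa (1.60-fold). Over all genes 11.9% were lower by 1.5-fold and 14% higher. Aurkb, the kinase of the passenger complex, was above background in LSK only, at -2.85. Its DMSO MEP reading of -4.48 was not well above background. Taken as it stands, that reading was 2.66-fold lower, with a scanner error of 0.57 log2, and is no lower bound.

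The same comparison under JQ1 uses the other 2 arrays. Its median over 37 members was -0.15, again with 28 below the median gene, and no member differed by 2-fold, against 7.95% of all 12263 genes. Lower in MEP by 1.5-fold were Ect2 (1.60-fold), Nusap1 (1.59-fold) and Ndc80 (1.56-fold), where 10.8% of all genes were lower by that much, and no member was higher, against 8.54%. Aurkb and Cenpf were not well above background on the JQ1 MEP array. Set to the lowest level well above background there, -3.64, they were 1.59-fold and 1.72-fold lower in MEP. Their scanner errors were 0.59 and 0.73 log2, so these are no lower bounds.

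Set beside each other, the 2 pairs of arrays put 22 of 37 members (59.5%) lower in MEP in both and 3 (8.11%) higher in both. Of all 12016 genes, 31.4% were lower in both and 31.7% higher in both. Across the members the 2 sets of differences had an r of 0.38, against 0.56 across all genes. Both are descriptions, since all genes of a comparison share its 2 arrays.

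Ect2, the exchange factor that starts the cleavage furrow, was lower in MEP in both pairs, at -0.73 and -0.67. Its levels under DMSO and JQ1 were 2.97 and 3.32 in LSK, against 2.02 and 2.72 in MEP. Nusap1, a microtubule bundler of the spindle, had LSK levels of 3.44 and 3.53 and MEP levels of 2.61 and 2.93, with differences of -0.61 and -0.66. Kif23, the kinesin of the midbody, had LSK levels of 1.19 and 1.11 and MEP levels of 0.15 and 0.62, with differences of -0.83 and -0.56. For each of these genes both LSK arrays lie above both MEP arrays, also relative to the median gene of each array. The share of all genes with this order was not counted. On the scaled level the DMSO MEP array was lowest for 54.8% of all 12016 genes. Arrays of different treatment are not replicates of a cell type.

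Ttk, the checkpoint kinase also called Mps1, was at -0.53 and -0.48, and Kif2c at -0.45 and -0.54, with -0.95 and -0.45 on its second probe. Plk1, Aurka and Kif20a had another pattern. Plk1 was at -0.96 under DMSO and 0.03 under JQ1, Aurka at -0.69 and -0.17, and Kif20a at -0.50 and 0.04, so their lower reading in MEP was seen in the DMSO pair and was within the scanner's error in the JQ1 pair. Cenpa was higher in MEP in both pairs, at 0.68 and 0.28, with levels of 3.86 and 3.88 in LSK and 4.32 and 4.22 in MEP. Ccnb2, at 0.17 and 0.19, and Hmmr, at 0.41 and 0.05, were the other members higher in both. Mki67 barely differed between the cell types, at -0.02 and -0.03.

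**Figure D4:**
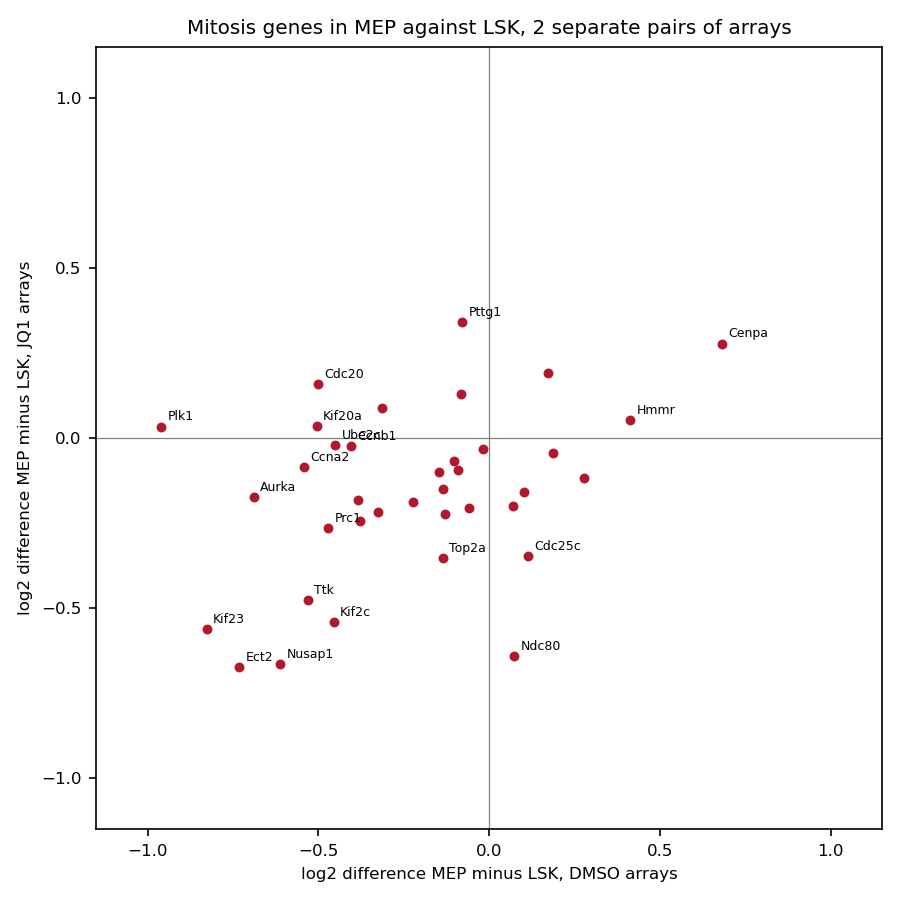
Log2 difference of MEP minus LSK for 37 mitosis genes, on the DMSO arrays (horizontal) and on the JQ1 arrays (vertical), each relative to the median measured gene. Most points, 22 of 37, are in the lower left, with Ect2, Nusap1 and Kif23 at its far end, and Plk1 lies at -0.96 on the horizontal axis and 0.03 on the vertical.

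Genes of DNA replication, which act earlier in the cell cycle, were compared as the nearest set. All 50 were measured in each comparison. JQ1 gave them medians of 0.09 in LSK and 0.16 in MEP. Between cell types the medians were -0.03 on the DMSO arrays and 0.01 on the JQ1 arrays. In these 2 comparisons 24 and 27 of the 50 lay above the median gene, where 10 of 38 and 9 of 37 members did. The 103 other mitosis genes measured had medians of -0.04 and -0.03 there, with 47 above the median gene in each. The low medians of the members were thus not shared by that list as a whole, but some of its roles were low on the DMSO arrays. Its kinases and checkpoint genes were at -0.20 (4 of 16 above) and its anaphase-promoting complex genes at -0.14 (3 of 14 above). Its kinetochore genes were at 0.12, condensin and cohesin at 0.07, and spindle and cytokinesis at -0.06. On the JQ1 arrays the kinases and checkpoint genes were at -0.11 and the anaphase-promoting complex genes at -0.01. Whether the sets differ was not tested. Past 2-fold was Orc1, a subunit of the origin recognition complex, at 1.02 for MEP against LSK under DMSO. Lowest for JQ1 in MEP were the replicative helicase subunit Cdc45 at -0.86, the kinase Cdc7 at -0.85 and the single-strand binding subunit Rpa3 at -0.68, and highest the ribonucleotide reductase subunit Rrm1 at 0.57.

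The transcription factors that act on mitosis genes were a list of 22, all measured. Their medians were 0.09 and -0.07 for JQ1 in LSK and MEP. E2f5, a repressor-type E2F, was the only one past 2-fold for JQ1 in LSK, at 1.35, and it read -0.45 in MEP. Its probe was dim, though above background on all 4 arrays. The levels under DMSO and JQ1 were -2.63 and -1.22 in LSK, and -2.15 and -2.26 in MEP. For JQ1 in MEP the highest were Rb1, the retinoblastoma gene, at 0.62, Mybl2, which encodes B-MYB, at 0.52, and E2f4 at 0.48. For MEP against LSK under JQ1, Rb1 was at 1.40 and E2f5 at -1.11.

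Within the members, promoters with and without the motifs were set side by side. For JQ1 in MEP the 24 members with a CHR sequence had a median of 0.15 and the 7 without one -0.01, and for JQ1 in LSK the medians were 0.09 (25 members) and 0.09 (7). With and without a CCAAT box the MEP medians were 0.17 (23 members) and -0.03 (8). Whether these medians differ was not tested.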

How the data were processed

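Total RNA (20 ng, per the labels' protocols) was labelled with Cy3 by a low-input method with a spike-in mix. Per the file headers, the scans of design 028005 (mm9 positions) were read by Feature Extraction 10.7.1.1 under protocol GE1_107_Sep09. The deposited processed signal and its error are intensity values, background-subtracted and detrended. Per the file headers, the other marks of well above background, saturation and outliers are yes or no. The authors' deposited table holds a linear ratio to the array's 75th percentile, and for probes above 1 it equalled, within 1%, the processed signal over a constant of each array. The authors' own steps are not stated in the labels.

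Spots without an outlier mark were averaged per probe on the log2 scale of the deposited signal and scaled to the 75th percentile. Of 55681 probes, 28026 received 1 symbol through RefSeq (GRCm38.p6). The brightest probe stood for a gene. Code was tested on simulated data. Python 3.11.15, limma 3.58.1 and statsmodels 0.14.6 were used. Members, lists and centring were chosen with earlier results of these data known. All members could be named. Of other lists, the rule took those past 2-fold and the 3 highest and lowest, of which the text gives some, and 1 result is not reported here. With 1 array per group no test was made, and the number of arrays limits the precision. Instead of mean signals, normexp used median signals. The alternatives were other scalings, background correction, probe summaries, filters and the deposited table.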

Additional observations from a re-analysis of the deposited data

Results flagged for a closer look

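Ube2c read below the median gene for JQ1 in LSK (-0.20) and above it in MEP (0.24), with a scanner error of 0.20 for each. The difference between the cell types was 0.43 log2 relative to all genes. Its second probe gave -0.11 and 0.17. This opposite movement was not tested, since each cell type has 1 array per treatment.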

How the results depend on the processing

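Differences are read relative to the median measured gene, because the scaling moves the median of all genes: scaled to the array median it was 0.26 and 0.75 for JQ1 in LSK and MEP and -0.32 and 0.19 for the cell types (MEP minus LSK) under DMSO and JQ1, and scaled to the spike-in probes 0.63, -0.53, 0.91 and -0.24. Without centring, the members' medians in that order, ending with the gap between the cell types in their JQ1 differences, were 0.35, 0.88, -0.46, 0.035 and 0.54 on the array median and 0.72, -0.40, 0.77, -0.39 and -1.11 on the spike-ins, so the direction of a median that is not relative to other genes depends on the scaling. On the 75th percentile alone they were 0.47 for JQ1 in MEP, -0.36 between the cell types under DMSO and 0.32 for the gap in JQ1 differences. Members past 2-fold were 0 of those measured on both arrays in each comparison, with Aurkb and Cenpf set apart where not above background. For JQ1 in MEP they became 11 (array median) and 2 (75th percentile). They became 4, 2 and 8 (array median, 75th percentile, spike-ins) for MEP against LSK under DMSO, and 2 (spike-ins) for JQ1 in LSK. With no filter on dim probes the medians were 0.23 for JQ1 in LSK, -0.00278 for MEP against LSK under DMSO and -0.10 for the gap in JQ1 differences, and 1, 1 and 2 members passed 2-fold for JQ1 in MEP and for the cell types under DMSO and JQ1. At 1.5-fold the counts were 3, 6 and 3 in those comparisons. The lowess centring was chosen after seeing the data. No paired analysis was possible because each group has 1 array, and for the same reason no replicate could be left out. Aurkb and Cenpf were limited by signal near background.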
